A study of Homo sapiens with 14 samples.

Results

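Of the 35210 FLI1 peaks (rows) in the list of set A replicate 1 on chromosomes 1 to 22 and X, 5726 (16.3%) met 4 conditions and are described here. They overlapped a row in each of the other 3 FLI1 lists, which left 16804 rows. They lay over 5 kb from any protein-coding transcript start, which left 8602. No run of 4 or more GGAA units on either strand lay within 250 bp of the summit, the position of the highest signal, which left 7740. No H3K27ac row of either replicate lay within 1 kb, which left the 5726 members, 34.1% of the shared rows. Because some members lie in the same row of another list, they fell on 5566, 5595 and 5587 distinct rows of set A replicate 2, set B replicate 1 and set B replicate 2. The members were thus chosen by measured values, the presence of a row in the 4 FLI1 lists and its absence from the H3K27ac lists, so neither is a finding here.

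All 14 CUT&RUN libraries came from TC-32 cells, an established Ewing sarcoma line, labelled WT and given no treatment. FLI1 was mapped in sets A and B, H3K27ac in set A, and H3K9me3 and H3K27me3 in set B, with 2 replicates each, and each set has 2 IgG controls. The labels do not say what the letters A and B stand for, or whether replicates were separate cultures, so spreads and p-values measure only the differences between these libraries. Positions are on hg38, and the lists give no read totals, so the depth behind a value is unknown.

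EWSR1::FLI1, the fusion that drives Ewing sarcoma, keeps the ETS DNA-binding domain of FLI1, which recognises sites around a GGAA core. It is known for binding microsatellites, runs of GGAA units that become enhancers marked by H3K27ac, and also isolated ETS sites, where activation is less regular. H3K9me3 and H3K27me3 mark chromatin silenced by heterochromatin proteins and by Polycomb. The antibody was raised against FLI1, and the lists do not tell the fusion from other FLI1 protein.

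Of the 5 members with the highest mean percentile of fold over the 4 lists, 4 are shown first, as the 121 bases around the summit on the plus strand, because they are among the strongest sites left once microsatellite summits are removed. GGAA and TTCC, the core on either strand, are in capitals.
SMIM24, chr19:3435053-3435173: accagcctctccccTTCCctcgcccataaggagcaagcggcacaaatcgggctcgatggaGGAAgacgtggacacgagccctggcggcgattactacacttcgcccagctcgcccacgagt
MPRIP, chr17:17011222-17011342: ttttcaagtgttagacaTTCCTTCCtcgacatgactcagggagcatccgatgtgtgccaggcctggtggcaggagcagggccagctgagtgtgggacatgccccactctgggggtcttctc
LLPH, chr12:66115433-66115553: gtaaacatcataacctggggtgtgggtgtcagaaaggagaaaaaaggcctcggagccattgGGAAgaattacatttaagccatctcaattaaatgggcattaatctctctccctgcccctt
ZNF778, chr16:89240853-89240973: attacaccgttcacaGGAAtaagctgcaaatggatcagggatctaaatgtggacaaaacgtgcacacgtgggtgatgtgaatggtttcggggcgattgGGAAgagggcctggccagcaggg
The windows held 2, 2, 1 and 2 cores, and the core was tandem in the MPRIP window only. Cores this sparse are common in the genome: GGAA lay within 50 bp of the summit in 69.8% of members, against 61.2% of all windows of that length in the genome.

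The deposited fold, the enrichment of the FLI1 library over its IgG control at the peak, was high at the 5 strongest sites in every library, and each is named by its nearest protein-coding start. At chr19:3434590-3435719, in an exon of NFIC, a gene for a nuclear factor I transcription factor, and 42.8 kb from the SMIM24 start, the folds were 130 and 120 in the set A libraries, 66.5 and 45.1 in those of set B. At chr17:17009709-17012532, between genes 29.9 kb from MPRIP, which encodes a protein that binds myosin phosphatase, they were 89.6 and 123 in the set A libraries, 45.3 and 70.8 in those of set B. The 31 bases at that summit occur at 2 places in the genome, so reads there could come from either copy. At chr12:66110957-66116894, between genes 13.8 kb from LLPH, the folds were 68.6 and 81.8, then 52.5 and 46.9. At chr10:21421053-21425188, between genes 92.7 kb from SKIDA1, they were 94.6 and 94.4, then 38.7 and 47.5. At chr16:89240560-89242100, between genes 19.5 kb from the zinc finger gene ZNF778, they were 54.3 and 57.7, then 88.6 and 51.1. Folds of different lists are not on one scale, so ranks between lists are compared as percentiles of the fold within each list. By percentile, the MPRIP, LLPH, SKIDA1 and ZNF778 sites stood highest in a set B list, at 99.94, 99.48, 99.50 and 99.94, and the SMIM24 site in set A replicate 1, at 99.78. In each list these 5 sites stood at or above percentile 98.3.

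Microsatellites had not all been removed by the summit rule. Of the members, 180 (3.14%) held a run of 4 or more units inside the row but more than 250 bp from the summit. The same held for 4.57% of the distal acetylated rows defined below. Of all rows, 3.67% held a run anywhere in the row, which includes runs at the summit, so that share is not a like background. The longest run in these 180 rows had a median of 12 units and a maximum of 25. The run of 4 or more units nearest to the summit, not always the longest, lay a median of 305.5 bp from it. Their rows were wide, with a median of 2756 bp against 820 bp for the other members. In the other 3 lists, whose summits the rule did not use, a run lay within 250 bp of the summit for 240 members in at least 1 list and for 67 in all 3. The runs in the 3 strongest of these rows are printed with up to 25 bases either side, cores in capitals, because they show full-length repeats beside summits that the rule passed.
SKIDA1, chr10:21423530-21423627: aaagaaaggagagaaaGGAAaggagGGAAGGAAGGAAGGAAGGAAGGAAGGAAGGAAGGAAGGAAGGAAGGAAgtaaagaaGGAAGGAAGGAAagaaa
LLPH, chr12:66067054-66067159: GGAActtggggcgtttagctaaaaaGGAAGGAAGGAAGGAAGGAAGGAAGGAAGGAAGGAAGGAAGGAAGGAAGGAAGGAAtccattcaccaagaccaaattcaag
ANKRD29, chr18:23669320-23669409: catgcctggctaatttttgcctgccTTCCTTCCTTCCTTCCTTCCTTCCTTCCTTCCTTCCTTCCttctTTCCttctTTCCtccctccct
The SKIDA1 stretch, with a run of 12 units, begins 341 bp beyond the summit of a site that is among the 5 strongest members. The second row, chr12:66060022-66070839, 59.9 kb from LLPH, had a run of 14 units and folds of 172 and 259 in the set A libraries, 31.3 and 39.3 in those of set B, and both set A values are the highest of any member in their list. The third, chr18:23668242-23672022, 5.33 kb from ANKRD29, had a run of 10 units and folds of 75.9, 101.1, 40.9 and 31.3. Median folds on both sides of the run threshold lay close together. The 49 members with a longest run of 3 units within 250 bp had median folds of 11.7, 10.4, 12.2 and 9.58 in set A replicates 1 and 2 and set B replicates 1 and 2. The 31 distal sites just outside, with a longest run of 4, had 10.7, 11.5, 10.99 and 9.11.

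Members with a run inside the row had higher folds than the rest. Their median percentile was 93.1, 94.7, 83.9 and 79.3 in the 4 lists (set A replicates 1 and 2, then set B), against 68.0, 74.1, 64.8 and 57.3 for the other 5546. The difference was 21.7 ± 2.53 percentile points (SD, n = 4 libraries), above 0 in 4 of 4. An exact sign-flip permutation test, two-sided, gave p = 0.13 (2 of 16 sign patterns), the lowest possible value with 4 libraries, and an adjusted p (Benjamini-Hochberg, 9 rank tests) of 0.188. This comparison was chosen after the runs had been seen. Among the 100 members with the highest mean percentile, 28 held such a run. By deciles of the mean percentile, the share rose from 0.175% in the lowest to 14.7% in the highest, and the median row width from 455 bp to 1618 bp, so a run inside the row and a wide row went together; the part of width was not tested.

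**Figure D1:**
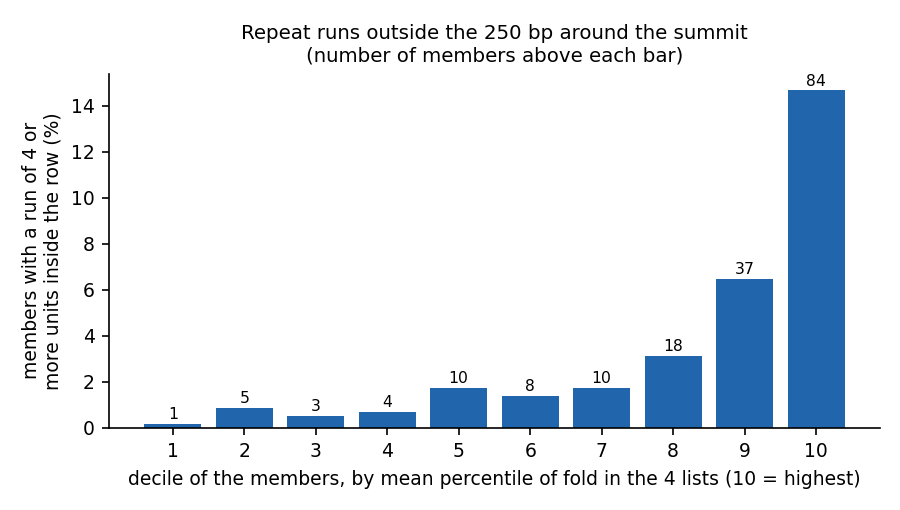
Members split into deciles by mean percentile of fold over the 4 FLI1 lists (x axis) and the percentage with a run of 4 or more GGAA units inside the row (y axis, bars from 0, number of members above). The lowest decile holds 1 such member and the highest 84, or 14.7%.

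Absence of acetylation means here that no H3K27ac row was listed. The H3K27ac lists were sparse: of 8202 shared FLI1 rows within 5 kb of a start, 3794 (46.3%) had an H3K27ac row within 1 kb, 30.3% in replicate 1 and 40.1% in replicate 2. The members lay a median of 61.7 kb from the nearest H3K27ac row. Of them, 1491 (26.04%) lay in stretches of at least 1 Mb without any, against 793 (9.67%) of the 8202 rows near starts. Only the members were chosen for having no such row within 1 kb. On chromosome 16 no H3K27ac row of either list lies beyond 84.7 Mb, although 67 protein-coding genes and 24 shared FLI1 rows near starts do. The 15 members there, the ZNF778 site among them, are unacetylated only in that sense.

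A 6-letter ETS core, CCGGAA on either strand, was more frequent in the members than in the sequence around them. It lay within 250 bp of the row's centre in 886 members (15.5%), against 3.84% of windows of the same length 2 kb to either side and 3.18% of all such windows in the genome. The share was 13.4% in the distal acetylated sites, 2.67% in the distal sites with a run at the summit and 38.4% within 5 kb of a start. Over all rows it was 17.1%, so the members did not stand above the list as a whole. Among 8-letter words found in at least 2% of member windows, the 6 whose share most exceeded that of the flanks all held this core: ATTTCCGG (2.25% against 0.210%, or 10.8 times), ACCGGAAG (9.23 times), ACTTCCGG (8.0), ACCGGAAA (7.61), CCGGAAGC (7.05) and CTTCCGGC (6.26). The word carries a CpG, and member centres had more CpGs than their flanks, 8.25 against 5.68 per window. All 53 other 6-letter words made of the same letters with a CpG were therefore counted. Their ratio of centre to flank ran from 0.585 to 3.42 with a median of 1.59, and CCGGAA, at 4.03, lay above all of them; the nearest, ACCGGA, overlaps it. The window at the row's centre was chosen after the summits had been looked at.

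The core in 4 of the strongest members is shown in capitals with 20 bases either side on the plus strand, since these sites carry no run and the core stands away from the summit.
SMIM24, chr19:3435218-3435263: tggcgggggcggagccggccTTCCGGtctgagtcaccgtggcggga
ZNF778, chr16:89241252-89241297: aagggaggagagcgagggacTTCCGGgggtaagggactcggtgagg
RSRP1, chr1:25239867-25239912: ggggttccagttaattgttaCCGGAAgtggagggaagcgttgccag
SPRY4, chr5:142356902-142356947: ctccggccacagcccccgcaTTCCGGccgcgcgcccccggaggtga
The SMIM24 stretch begins 105 bp and the ZNF778 stretch 339 bp beyond the summit. The site near RSRP1, a gene for an arginine- and serine-rich protein, lies at chr1:25239508-25240526 in a lncRNA gene, 6.92 kb from the coding start. Its folds were 39.2 and 35.8 in the set A libraries, 57.1 and 44.9 in those of set B. The site at chr5:142355722-142358505, in a lncRNA gene 30.7 kb from SPRY4, an inhibitor of receptor tyrosine kinase signalling, had folds of 31.2 and 39.7, then 42.9 and 47.5. By percentile of fold, both sites stood higher in each set B list than in either of set A.

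The core was rarer at the summits than 100 to 200 bp beside them. In set A replicate 1 the 50 bp at the summit held 44 occurrences over all members, against 201 in the bin 150 bp to the side of lower coordinates and 121 in the bin 200 bp to the other side. In the other 3 lists the summit bin held 44, 81 and 81, and the highest bin, 100 or 150 bp to the side of lower coordinates, 224, 209 and 211. To the side of higher coordinates the set B lists held 111 and 110 at 150 bp. At 200 bp on that side they held 76 and 79, below the summit bin. Around the row's centre the gap was smaller: 107 at the centre, 123 and 130 in the bins beside it, and at most 137 at 100 bp. CCGGAA lay within 50 bp of the summit in 85 members (1.48%), above the 0.646% of windows of that length 2 kb to either side and the 0.638% of the genome's windows. The share was 2.45% in all rows and 1.24% in the distal acetylated sites. At the summit only 38 8-letter words lay in at least 2% of member windows and could be ranked. Among them the highest ratio to sequence 450 bp away was 1.39, for CCCCTCCC. ACCGGAAG was too rare to be ranked there. It lay within 50 bp of the summit in 0.105% of members, against 0.0611% of windows 2 kb to either side.

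**Figure D2:**
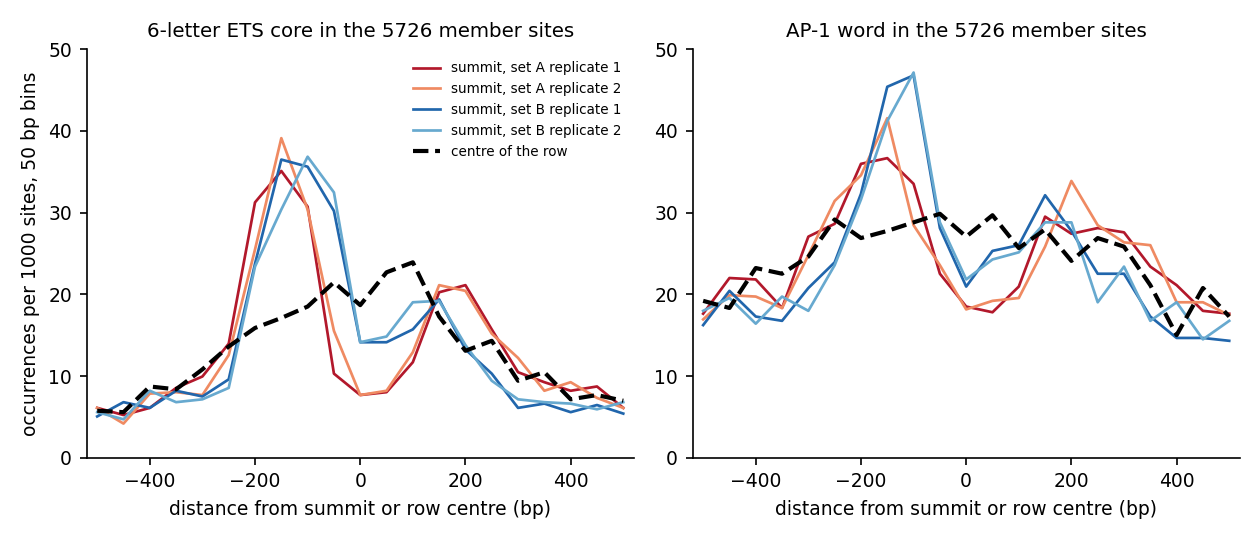
Occurrences per 1000 members, in 50 bp bins, of the 6-letter ETS core (left) and the AP-1 word (right) by distance in bp from the summit in each FLI1 list (coloured lines) and from the centre of the row (dashed). Both words are rarer at the summit than 100 bp to the side of lower coordinates in all 4 lists, with the ETS core at 7.68 per 1000 at the summit in set A replicate 1. The gap at the row's centre is smaller, with the ETS core at 18.7 against 21.5 and 22.7 in the bins beside it.

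Whether the core went with a stronger FLI1 signal depended on where it was looked for. Members with it within 250 bp of the row's centre had median percentiles of 72.5, 75.8, 72.1 and 66.1 (set A replicates 1 and 2, then set B), against 68.0, 74.8, 64.1 and 57.3 without. The difference was 5.56 ± 3.55 points (SD, n = 4), above 0 in 4 of 4 libraries, and 1.02 in set A replicate 2 (exact sign-flip permutation p = 0.13, adjusted 0.188). The 85 members with it within 50 bp of the summit instead had a difference of -3.30 ± 2.175 points, negative in each of the 4 libraries (exact permutation p = 0.13, adjusted 0.188; n = 4). With a window of 100 bp that difference was 1.77, and without set A replicate 1, where the starting list, the members and the summits all come from replicate 2, it was 3.57. Its sign thus changed in both of these alternatives.

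A tandem pair or triple of GGAA units, which the rule leaves in, lay within 250 bp of the summit in 686 members. Of the members, 637 (11.1%) had a pair and 49 (0.856%) a triple as the longest run. For all rows only the window at the row's centre was counted. There GGAAGGAA, which longer runs also hold, was in 12.8% of members, 10.2% of all rows, 9.43% of distal acetylated sites and 5.66% of flanks. The 686 members had median percentiles of 69.8, 76.9, 69.5 and 62.6, against 68.6, 74.7, 64.8 and 57.3 for the 5040 members with neither. The difference was 3.36 ± 1.93 points (SD, n = 4), above 0 in 4 of 4 libraries (exact sign-flip permutation p = 0.13, adjusted 0.188). It was larger in set B (4.66 and 5.30) than in set A (1.27 and 2.20); that contrast between sets was not tested.

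Words of other transcription factor families were searched on both strands within 250 bp of the row's centre. The AP-1 word TGANTCA, bound by FOS and JUN proteins, was in 23.5% of members against 15.4% of their flanks and 14.8% of the genome's windows. Its share was 25.97% in the distal acetylated sites, 13.0% in distal sites with a run, 9.88% near starts and 17.1% in all rows. The SP and KLF word GGGCGGG, typical of CpG-rich promoters, was in 9.20% of members, 2.88% of flanks and 49.6% of sites near starts. It was in 8.79% of the distal acetylated sites and 19.1% of all rows. The E-box CAGCTG was in 25.5% of members and 19.5% of flanks, the SOX word ACAAAGG in 12.1% and 9.06%, the RUNX word TGTGGTT in 11.4% and 8.99%, and the forkhead word TGTTTAC in 9.03% and 6.54%. In the same order, the shares were 26.5%, 13.5%, 10.0% and 10.3% in the distal acetylated sites. Over all rows they were 23.7%, 10.1%, 8.90% and 7.60%. The NKX2 word CACTTAA, for the family of NKX2-2, a factor that Ewing cells depend on, differed little, at 7.81% and 7.42%. Another E-box, CAGGTG, bound by ZEB factors and TCF4, was rarer in members (21.9%) than in flanks (37.3%) and in the genome (31.4%). It was in 20.3% of the distal acetylated sites and 25.1% of all rows. These shares are descriptions of sequence, and the flanks do not match the members in base composition. Mean GC content was 45.8% in the member windows and 43.5% in the flanks. The 1348 members with an AP-1 word at the centre ranked 0.270 ± 1.301 points above the others (SD, n = 4), with differences on both sides of 0 and an exact sign-flip permutation p of 0.875 (adjusted 0.984).

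**Figure D3:**
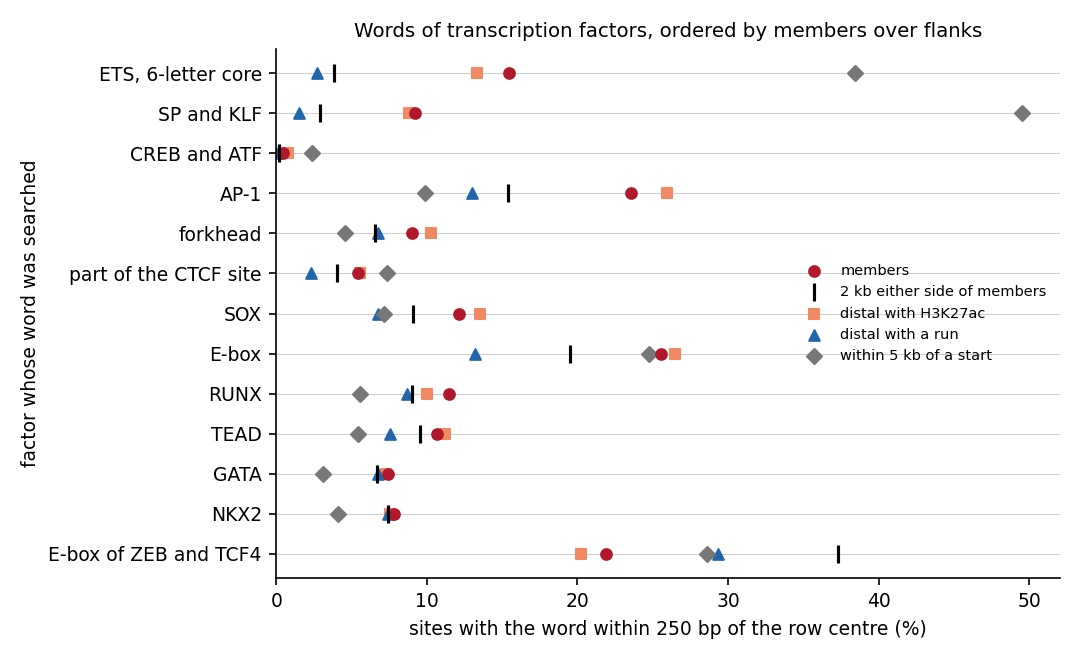
Percentage of sites (x axis) with the word of each factor family (y axis) within 250 bp of the row's centre, in the members, in windows 2 kb to either side of them, and in the other 3 classes of shared FLI1 sites. The ETS core leads the order by members over flanks, at 15.5% against 3.84%, and the E-box of ZEB and TCF4 is last, at 21.9% against 37.3%.

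FLI1 fold at members was compared with that at 2014 distal acetylated sites, which met every condition except that H3K27ac lay within 1 kb. In set A replicates 1 and 2 the members had median folds of 9.17 and 10.0 and median percentiles of 68.6 and 74.99, and in set B replicates 1 and 2 folds of 10.1 and 8.86 and percentiles of 65.3 and 58.1. The acetylated sites stood at 67.2, 74.7, 67.8 and 61.2. Members were higher by 1.44 and 0.240 points in set A and lower by a difference of -2.51 and -3.12 in set B, and the middle 50% of the sites of each class overlapped in each library. The mean difference was -0.988 ± 2.18 (SD, n = 4), with an exact sign-flip permutation p of 0.5 (adjusted 0.643). It was -1.74 without set A replicate 1 and -1.86 without set A replicate 2. Set A FLI1 shares its IgG controls with H3K27ac and set B does not. The 862 distal sites with a run at the summit stood far above both, at 94.98, 96.2, 86.4 and 84.1, and sites within 5 kb of a start at 73.1, 75.8, 80.5 and 73.6. Members ranged widely, from folds of 2.81, 2.64, 2.54 and 2.36 up to 172, 259, 120 and 71.8.

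**Figure D4:**
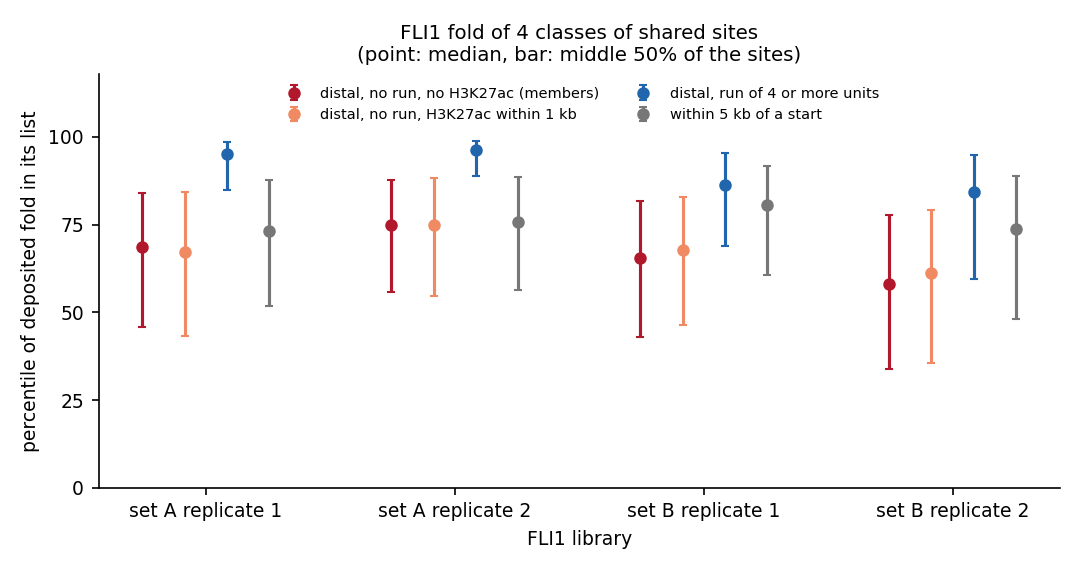
Percentile of deposited fold within its list (y axis) for 4 classes of FLI1 sites found in all 4 lists, by FLI1 library (x axis). Points are medians and bars span the middle 50% of the sites, which overlap between members and distal acetylated sites in each library; sites with a run at the summit are highest in each, with medians from 84.1 to 96.2.

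Members kept their rank better within a set than between sets. Spearman's rank correlation of the percentiles over the 5726 members was 0.717 between the set A replicates, 0.544 between those of set B and 0.320 to 0.338 across sets, as a description of sites that share their libraries. Of the members, 154 (2.69%) were in the upper 10% of all 4 lists, 682 in that of both set A lists and 314 in that of both set B lists. The set means lay over 30 percentile points apart for 1533 members (26.8%), of which 1125 were higher in set A. These correlations and counts were made for members only. Whether the other shared rows differ in them is not known.

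Members were rarely listed with a repressive mark. H3K9me3 rows overlapped 97 members (1.69%) in replicate 1, 62 (1.08%) in replicate 2 and 46 in both, 0.803% (Wilson 95% interval 0.603% to 1.07%), against a background of 1.08% over all 35210 rows. The share in both replicates was 0.894% of the distal acetylated sites (0.566% to 1.41%) and 5.45% of the distal sites with a run (4.12% to 7.18%). H3K27me3 rows overlapped 19 members (0.332%) in replicate 1, 12 (0.210%) in replicate 2 and 9 in both, 0.157% (0.0827% to 0.298%), against a background of 0.301% over all rows. None of the 2014 distal acetylated sites overlapped H3K27me3 in either replicate, which allows a share of up to 0.190%. With 2 libraries per mark no test was made, and these intervals cover counting error only. No row of either repressive mark in either replicate overlapped 5591 members.

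**Figure D5:**
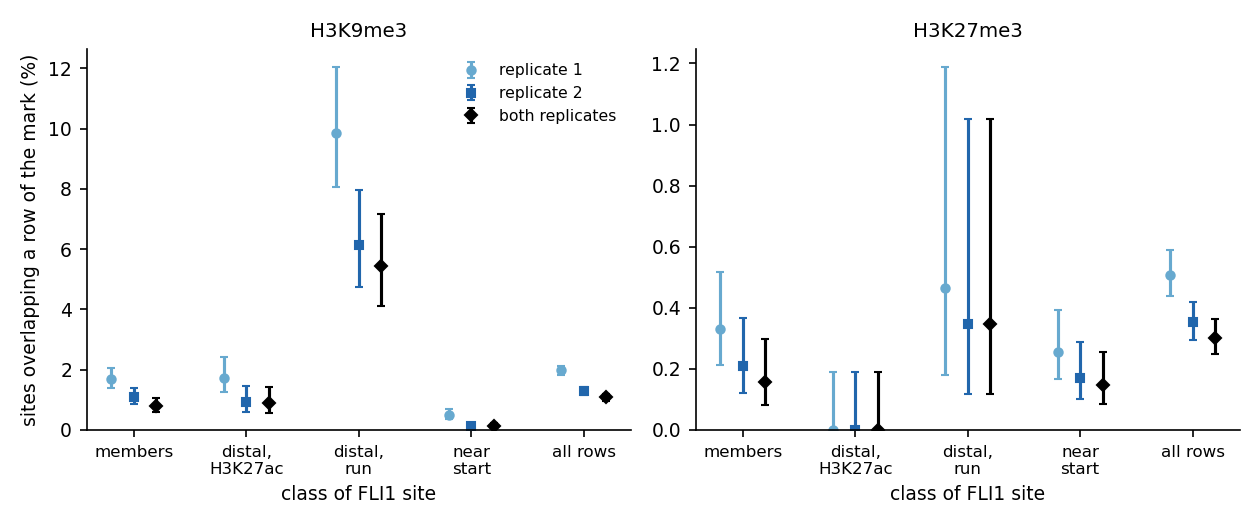
Percentage of FLI1 sites (y axis, scales differ) that overlap a row of H3K9me3 (left) or H3K27me3 (right) by class of site (x axis), for replicate 1, replicate 2 and both, with Wilson 95% intervals. Members sit at 0.803% for H3K9me3 in both replicates, near the acetylated sites, and distal sites with a run at 5.45%.

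The 46 members in H3K9me3 rows of both replicates ranked higher than the 5591 members in no repressive mark, by 16.3 and 15.6 points in the set A libraries, 5.49 and 5.48 in those of set B (10.7 ± 6.05, SD, n = 4; exact sign-flip permutation p = 0.13, adjusted 0.188). Judged by 1 mark library alone, it was 6.63 without H3K9me3 replicate 2 and 14.6 without replicate 1. Their rows were wider, with a median of 1743.5 bp against 837 bp, and without the members that hold a run in the row the difference was 6.81. Where the summit itself had to lie inside the mark, 16 members were left and the difference was -15.6, below 0 in 4 of 4 libraries. The 9 members in H3K27me3 ranked lower in set A (-15.1 and -2.38) and higher in set B (11.7 and 10.1), a mean of 1.10 ± 12.5 points (SD, n = 4; exact permutation p = 1, adjusted 1). Its sign turned on leaving out set A replicate 1 (-5.88), set A replicate 2 (-0.512) or set B replicate 1 (-3.62). The strongest member with H3K9me3 was chr6:168166438-168169789, between genes 64.9 kb from FRMD1, with folds of 56.1, 111, 41.4 and 28.2. The next, chr1:2255101-2256528, lies in an intron of SKI, a repressor of TGF-beta signalling, with folds of 32.2, 42.0, 32.7 and 42.1. The third, chr3:151576753-151582086, lies between genes 115.7 kb from IGSF10, holds a run of 10 units and had folds of 26.3, 77.1, 39.6 and 28.3. Among the H3K27me3 members the strongest, chr14:105628615-105631995, lies in the immunoglobulin heavy-chain locus, 102.0 kb from TMEM121, where the summit's 31 bases occur 5 times in the genome. Its folds were 41.7, 54.5, 21.5 and 16.8. The other 2 lie 96.2 kb from MGAT5B (chr17:76968800-76969849; folds of 8.86, 9.29, 21.9 and 23.5) and 9.40 kb from the homeobox gene GBX2 (chr2:236177789-236178951; 11.3, 13.6, 12.8 and 8.84). By percentile the MGAT5B site was higher in both set B libraries (92.4 and 95.03) than in either of set A (66.6 and 72.4).

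The 3 members with the most GGAA or TTCC cores within 250 bp, 41, 39 and 35, also lie in the heavy-chain locus, at chr14:105749195-105749541, chr14:105650111-105651155 and chr14:105649372-105649871. In that order, their folds were 5.23, 8.62 and 4.95 in set A replicate 1 and 5.58, 12.0 and 5.54 in replicate 2, against members' medians of 9.17 and 10.0. In set B they were 6.74, 15.8 and 10.7 in replicate 1 and 11.3, 16.2 and 8.46 in replicate 2, against medians of 10.1 and 8.86. The site with 39 cores was above the median in 3 of the 4 libraries. The 31 bases at its summit occur at 2 places in the genome, so reads there could come from either copy. Each of the other sites was above the median in 1 library. The rule allows no run of 4 units within 250 bp of the summit. None of the cores counted at the 3 sites stood in tandem at all.

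The members lay far from coding starts, a median of 51.2 kb away, with 31.1% over 100 kb, against medians of 35.9 kb for the distal acetylated sites and 71.01 kb for distal sites with a run. Introns of protein-coding genes held 40.5% of the summits, sequence between genes 38.3%, lncRNA genes alone 19.5% and exons of protein-coding transcripts 1.75%. Over all rows the shares were 43.3%, 30.96%, 14.6% and 11.2% in the same order. All rows include those within 5 kb of a start, which the rule leaves out of the members, so this is not a like background. Among the distal acetylated sites, which met the same distance rule, the shares were 50.4%, 28.1%, 19.2% and 2.33%. The rows of 451 members (7.88%) lay within 1 kb of a lncRNA start, against 11.4% of all rows and 11.6% of the acetylated sites. These 451 ranked 4.65 ± 5.00 points above the other members (SD, n = 4), by 1.42 and 0.0234 in the set A libraries, 6.10 and 11.1 in those of set B (exact sign-flip permutation p = 0.13, adjusted 0.188). At 5490 members (95.9%) the 31 bases at the summit occur once in the genome.

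Another member lay within 10 kb of 1715 members (29.95%) and within 50 kb of 2982 (52.1%). How often other FLI1 rows had such neighbours was not counted. The fullest window of 1 Mb, chr5:142000000-142999999, held 35 members among 56 FLI1 rows, 18 of them nearest to SPRY4 and 9 to the growth factor gene FGF1. The next, chr12:89000000-89999999, held 27 among 58 rows, 23 of them nearest to DUSP6, a phosphatase that inactivates ERK. SPRY4 and DUSP6 are both feedback inhibitors of the same receptor-to-ERK pathway, and H3K27ac had 5 and 10 rows in the SPRY4 window (replicates 1 and 2) and 2 and 1 in the DUSP6 window. The windows chr6:15000000-15999999 (22 members, 11 nearest to DTNBP1 and 8 to the Polycomb partner JARID2) and chr9:115000000-115999999 (21, with 15 nearest to the matrix protein gene TNC) followed, and then 2 windows of 20 members each: chr11:132000000-132999999 (14 nearest to the adhesion gene OPCML and 6 to NTM) and chr6:14000000-14999999 (12 nearest to the immune surface gene CD83 and 7 to JARID2). In the SPRY4 window the median percentiles were 71.1, 81.8, 79.2 and 74.5, and in the OPCML window 56.3, 52.0, 57.8 and 55.6. By chromosome, members numbered from 1.05 per Mb (chromosome 21) to 2.89 (chromosome 20). As a share of a chromosome's FLI1 rows they ran from 9.88% (chromosome 19) to 22.4% (chromosome 13), against 16.3% of the whole list.

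Lists of genes known in Ewing sarcoma were read against the background of all 19618 protein-coding genes, of which 29.9% had a member within 100 kb of a transcript start. Among genes that the fusion is known to activate, 14 of 26 (53.8%) had a member, with 34 members in all. Among genes it is known to repress, 4 of 12 (33.3%) did: TGFBR2, a receptor of TGF-beta, with 9 members, IER3 with 4, PHLDA1 with 3 and SPRY1 with 1. The share was 6 of 11 (54.5%) for core transcription factors, 6 of 15 (40.0%) for mesenchymal genes and 8 of 25 (32.0%) for axon guidance and neural adhesion genes. The repressed and neural lists thus stood near the background. No test was made, since the lists are short and were chosen with results of these data known.

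The strongest member near a list gene was chr16:24202465-24205893, in an intron of PRKCB, a protein kinase C gene known as a direct target, with folds of 67.1 and 78.4 in the set A libraries, 22.2 and 24.4 in those of set B. The next, chr18:63375667-63380992, 8.46 kb from KDSR, an enzyme of sphingolipid synthesis, had folds of 41.2, 62.3, 21.9 and 18.5, held runs of up to 16 units, the nearest of at least 4 units 339 bp from its summit, and overlapped H3K9me3 in both replicates. The MEIS1 site (chr2:66361695-66365442), 69.7 kb from the start of this homeobox gene, had folds of 34.9, 41.3, 25.4 and 18.1. The SEMA3A site (chr7:84204497-84211100), in an intron of this secreted axon repellent, had 33.6, 46.8, 19.3 and 20.4. By percentile of fold, all 4 stood higher in each set A list than in either of set B.

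The remaining list-gene sites had no run except that near NCAM1. The NTM site (chr11:132071552-132073447), in an intron of this neural adhesion gene, had folds of 37.3, 35.3, 16.7 and 15.04. The NPY1R site (chr4:163402884-163405747), 58.1 kb from this neuropeptide Y receptor gene and 52.7 kb from its neighbour NPY5R, had 40.1, 21.7, 15.9 and 15.8. The NCAM1 site (chr11:112891668-112894493), 66.8 kb from the start of the CD56 adhesion gene, had 31.9, 20.6, 21.3 and 13.6 and runs of up to 9 units, the nearest of at least 4 units 281 bp from its summit. The IER3 site (chr6:30781469-30783237), 36.9 kb from this stress-response gene, had 18.7, 18.1, 17.0 and 21.8, with percentiles from 86.7 to 93.96.

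At the edges of the rule, the member nearest to a start, chr1:45797297-45798601 in a MAST2 intron, lay 5.01 kb away with folds of 5.54, 9.34, 8.27 and 10.1. The nearest site outside, chr1:86429162-86430453 in a CLCA2 intron, lay 4.99 kb away with folds of 19.3, 18.0, 14.0 and 8.81. The member nearest to an H3K27ac row, chr1:116826861-116827586, 72.4 kb from CD2, lay 1.01 kb from it with folds of 5.60, 6.35, 26.3 and 14.8. The nearest site outside, chr6:16722205-16723103 in an ATXN1 intron, lay 0.987 kb from one with folds of 5.97, 5.38, 3.54 and 5.35.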

How the data were processed

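CUT&RUN of TC-32 cells gave 14 libraries, of which the 10 antibody libraries each have a deposited peak list. Per the labels' protocols, a commercial kit with pAG-MNase and a yeast spike-in was used. The submitters' processing notes name cutadapt 4.4, Bowtie2, Picard 2.17.11, MACS2 2.1.1 and the build GRCh38 (hg38). Judged by the peak names in the deposited files, each library was called by itself after removal of duplicates, with the equally numbered IgG library of its set as control; whether the spike-in scaled anything is not given in the sources used here. The deposited fold of a row is a ratio of signal to control, and the deposited significance is given as −log10 p and −log10 q, all the authors' own values. Fold and significance were used only within a list, as percentiles, and as given at named sites.

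Starts and genes came from GENCODE release 44 and sequence from hg38. The strongest overlapping row gave a member's value in another list. Differences of median percentile, taken within each FLI1 library, were assessed by an exact two-sided sign-flip permutation test (4 libraries), adjusted by Benjamini-Hochberg (9 tests). Scripts were tested on simulated data. Sites were named by fixed rules: the 5 with the highest mean percentile, the 3 highest in each repressive mark, the 3 with the most GGAA cores, 8 near list genes, and those next to each threshold; the 8-letter words were the 6 with the highest ratio. The 7 further stretches of sequence (3 with runs, 4 with CCGGAA) come from the strongest sites of their kind and were chosen after the values were seen. The SKIDA1, SMIM24 and ZNF778 stretches lie in sites that are also among the 5 strongest. The summit sequence of 1 of the 5 strongest sites is not reported here. Members, lists and rules were chosen with earlier results of these data known. Python 3.11.15, numpy 2.4.6, pandas 2.3.3, scipy 1.17.1, numba 0.67.0 and matplotlib 3.10.9 were used. The IgG libraries and reads were not analysed here. Alternatives covered the distance to starts, the H3K27ac and run windows, the overlap rule, peak strength, the measure of rank and leaving out each library.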

Additional observations from a re-analysis of the deposited data

Results flagged for a closer look

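In 3 of the 9 rank comparisons both set A libraries moved opposite to both set B libraries. No test of this contrast was made: with 2 libraries in each set, exact permutation gives no p under 0.333, and the difference was not tested otherwise. For members against distal acetylated sites, the mean of set A lay 3.65 percentile points above that of set B. For members in H3K27me3 against members in no repressive mark, which rests on 9 sites, the mean of set A minus that of set B was -19.6 points. For members with the AP-1 word at the row's centre against members without it, the gap was -1.96 points. Set A FLI1 and H3K27ac were called against the same IgG libraries, and the repressive marks were mapped in set B, so the set cannot be told apart from these pairings.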

How the results depend on the processing

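Each tested difference was taken within a library, so it is itself a paired comparison of 2 kinds of site. No paired analysis was possible by replicate number, because no groups of libraries were compared. The exact sign-flip test over 4 libraries cannot go below 0.13, so only direction and size are compared. The tandem pair or triple kept its sign in all 16 alternatives (1.23 to 4.44 points). Members against acetylated sites reversed among the more significant 50% of each list, to 0.0515 points, and went to -1.74 and -1.86 without set A replicate 1 or 2. The H3K9me3 difference reversed with the summit inside the mark, to -15.6, and was 6.63 without mark replicate 2 and 14.6 without mark replicate 1. The H3K27me3 difference, on 2 to 22 sites, reversed with the summit inside the mark (-12.4), in the more significant 50% (-2.07), and on leaving out a FLI1 library, where it ran from -5.88 (without set A replicate 1) to 2.35 (without set B replicate 2). The CCGGAA difference at the summit reversed with a window of 100 bp (1.77) and at the row's centre (5.56), the latter added after the data were seen, and ran from -5.34 (without set B replicate 1) over -0.332 (without set B replicate 2) to 3.57 (without set A replicate 1).

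The members numbered 2904 over 50 kb from a start, 1744 with reciprocal overlap of 50% and 2268 in the more significant 50%, and 5976 to 7265 without an H3K27ac or FLI1 library. The H3K9me3 share was 0.279% with the summit inside the mark and 1.97% with either replicate, and ran from 0.744% to 1.69% on leaving out a library. The H3K27me3 share was 0.0524%, 0.384%, and 0.137% to 0.332% in the same order, and 0.0689% over 50 kb from a start. The CCGGAA share at the summit was 0.699% within 25 bp, 3.88% within 100 bp, 15.5% at the row's centre and 1.84% with reciprocal overlap. Without the 180 members that hold a run in the row, 5546 were left, no sign changed, and the H3K9me3 difference was 6.81 points and the difference from acetylated sites -0.201. The cause of these shifts was not tested. Depth is unknown, so a mark that is absent from a list was not detected rather than absent.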
